A study of Mus musculus with 24 samples.

Results

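Dissected cortex of mice labelled Cdr1as knockout was compared with dissected cortex of wild-type mice, both C57BL/6. The comparison takes 6 of the 24 RNA-seq libraries of the series, 3 knockout and 3 wild-type, chosen by the region, genotype and replicate number in their labels. The other 18 libraries come from cerebellum, hippocampus and olfactory bulb, again 3 knockout and 3 wild-type each, and serve here only to show where cortex differs. All libraries are of total RNA depleted of ribosomal RNA, and no treatment is given for any group. The sources used here do not give how the allele was made, the age of the mice, or whether replicates 1 to 3 are separate animals, and every p-value here speaks only of the spread among libraries, part of which may be technical.

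Cdr1as is a circular RNA of neurons. Many sites along it bind miR-7, and one extensively paired site for miR-671 allows the circle to be cut. Immediate early genes, among them Fos, Arc and the Egr and Nr4a families, are transcribed within minutes of neuronal firing, mainly through CREB and serum response factor, and are widely used as a record of recent activity in the cortex. The mature microRNAs tied to Cdr1as are shown because their seeds define the sites on the circle (RefSeq, GRCm38.p6, 5′ to 3′, seed bases 2 to 8 in capitals). miR-7a and miR-7b share one seed, and miR-671-5p has another. The libraries do not measure mature microRNAs.
miR-7a-5p: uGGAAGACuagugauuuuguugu
miR-7b-5p: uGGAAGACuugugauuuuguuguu
miR-671-5p: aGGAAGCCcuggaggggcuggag

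The cortex libraries held 9.90 to 27.36 M counts in genes and 20024 to 22144 genes with a count. The share of reads assigned to no feature was 30.47%, 53.75% and 33.61% in knockout 1 to 3, against 20.34%, 56.19% and 34.90% in wild type 1 to 3, and library 2 of each genotype had the largest share. The cortical identity factor Tbr1 (120 to 150 CPM in knockout, 127 to 155 CPM in wild type) lay above every library of the other regions, whose highest value was 58.9 CPM. CPM are counts per M counts of a library after trimmed-mean (TMM) scaling. The scaling was over all 24 libraries for the genes of this paragraph, marker sums, Gabra6 and Pcp2, and where stated. It was over the 6 cortex libraries elsewhere.

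The entry that counts Cdr1as was nearly empty in knockout cortex. Such counts do not separate circular from linear RNA of the locus. Cdr1as had 7, 9 and 5 counts (0.278, 0.395 and 0.327 CPM) in knockout 1 to 3, against 15195, 11918 and 18829 counts (928, 1193 and 690 CPM) in wild type 1 to 3. The log2 fold change of knockout over wild type was −11.43 (SE 0.33, adjusted p = 5.73e-06, edgeR quasi-likelihood test). Over the 19 alternative settings it lay between −11.60 and −11.10.

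Without regard to the replicate numbers, Cdr1as was the only one of 15777 genes tested that passed an adjusted p of 0.05, or 0.00634% of them. The next smallest adjusted p was 0.217, and 890 genes (5.64%) had an unadjusted p below 0.05. Same-numbered knockout and wild-type libraries deviated together from their group means, with correlations across genes of 0.437, 0.589 and 0.145 for numbers 1, 2 and 3. Fold changes and adjusted p-values of single genes are therefore given with the number as a block where this is stated, and otherwise without it. For knockout 3 the correlation with wild type 1 (0.318) exceeded that with its own number. The labels do not say what a shared number stands for, so the use of the block rests on these same libraries.

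With the replicate block 2044 genes had an unadjusted p below 0.05 (edgeR) and 30 passed. The block leaves few residual degrees of freedom. With 1 pair left out it called 92 to 523 genes, each time with these 30 among them. Of the 30, 27 (0.171% of genes tested) rose in knockout and 3 (0.019%), Cdr1as, Eomes and Gpr22, fell. A total of 13 of the 27 belong to the lists of early transcription factors and activity-induced effectors. These lists hold 26 and 28 of the 15777 genes tested. Both were written with earlier results of these data known, so the 13 are not independent evidence. The fitted rise of the 27 without the block ran from 0.71 to 2.12 on the log2 scale with a median of 1.07. Each of the 29 genes other than Cdr1as moved in one direction in all 3 pairs. Knockout and wild-type values did not overlap for 27 of the 30, a pattern shown by 6.58% of all genes tested in the higher direction and by 6.9% in the lower. The 30 were chosen by the paired fit to these same libraries, which favours both patterns. Neither pattern is therefore independent evidence.

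**Figure D1:**
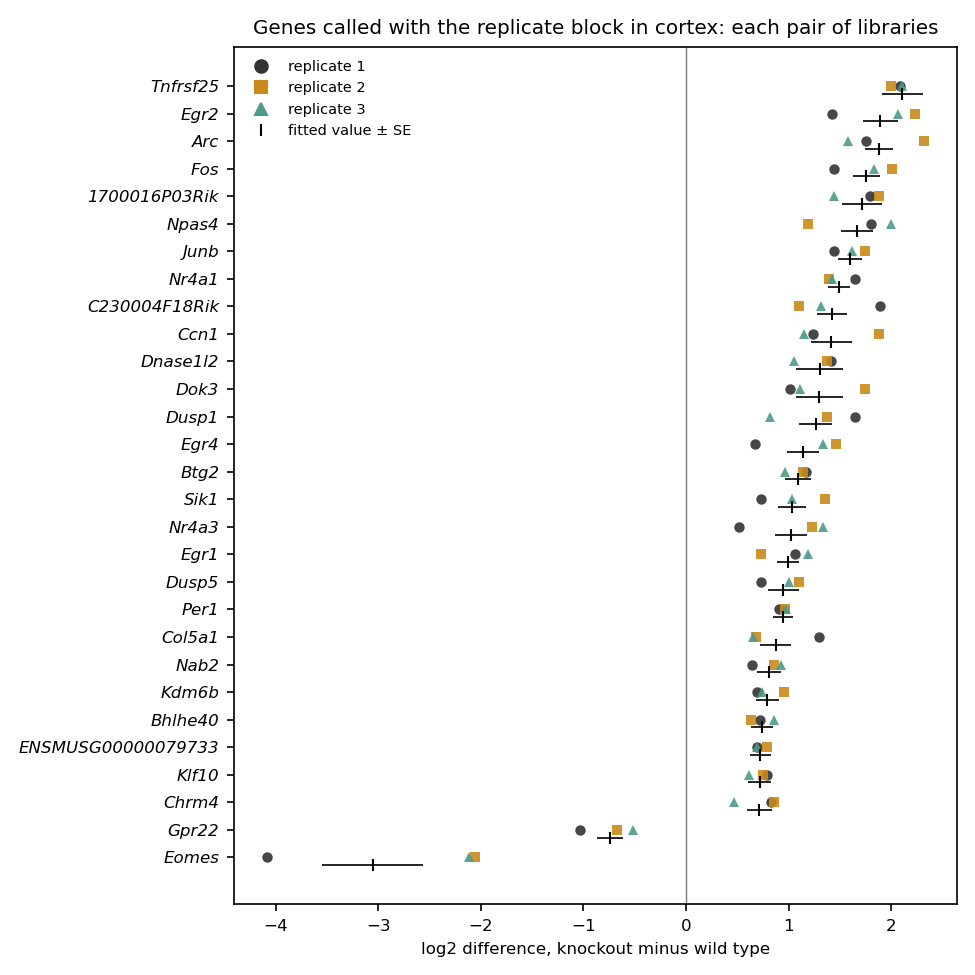
Log2 difference between same-numbered knockout and wild-type cortex libraries (x axis, 1 symbol per replicate number, log2 CPM with a prior count of 2) for the 29 genes other than Cdr1as called with the replicate block, with the fitted value ± SE as a black bar. Each gene has its 3 symbols on one side of 0, with Tnfrsf25 at 1.99 to 2.11 among the tightest and Eomes at −4.09 to −2.06 among the widest.

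Fos and Junb, subunits of the AP-1 transcription factor, rose in knockout. Fos had 61.4, 64.1 and 96.2 CPM in knockout 1 to 3, against 22.6, 15.9 and 26.9 CPM in wild type. Junb had 79.6, 67.2 and 95.9 CPM in knockout and 29.2, 20 and 31.1 CPM in wild type. The lowest knockout library of either gene lay more than 2-fold above the highest wild-type library. With the block Fos rose by 1.76 (SE 0.13, adjusted p = 4.50e-05, edgeR) and Junb by 1.60 (SE 0.12, adjusted p = 4.36e-05, edgeR) on the log2 scale.

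The zinc-finger factors of the Egr family did not move as one. Egr2 had 26.6, 24.3 and 36.2 CPM in knockout, against 9.90, 5.10 and 8.58 CPM in wild type, and rose by 1.89 (SE 0.17, adjusted p = 2.83e-04 with the block, edgeR). Egr1, the most abundant member, had 565, 374 and 508 CPM in knockout and 271, 226 and 223 CPM in wild type, and Egr4 had 54.6, 37.6 and 55.9 CPM in knockout and 34.3, 13.6 and 22.1 CPM in wild type. Both rose with the block, at adjusted p = 9.09e-04 for Egr1 and 0.0104 for Egr4 (edgeR), with pairs of Egr4 differing by 0.67, 1.46 and 1.33. Egr3 had 134, 116 and 120 CPM in knockout, against 147, 85.2 and 98.9 CPM in wild type. Its wild-type library 1 was the highest of the 6, and the change of 0.19 with the block (SE 0.12, adjusted p = 0.528, edgeR) did not pass. Nab2, a corepressor that binds Egr proteins and is itself induced by them, had 44.3, 43.2 and 47.4 CPM in knockout and 28.3, 23.9 and 24.9 CPM in wild type, and rose by 0.81 with the block (SE 0.12).

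Among the NR4A orphan nuclear receptors, Nr4a1 had 140, 146 and 203 CPM in knockout, against 44.5, 55.6 and 75.7 CPM in wild type, and rose by 1.49 (SE 0.11, adjusted p = 4.36e-05 with the block, edgeR). Nr4a3 had 96.5, 88.8 and 112 CPM in knockout and 67.5, 37.8 and 44.5 CPM in wild type, and rose by 1.02 (SE 0.16). Nr4a2 was also higher in every knockout library (77.2, 60.3 and 62.7 CPM, against 48.7, 44.4 and 40.5 CPM in wild type), but its 0.58 (SE 0.11) had an adjusted p of 0.0761 with the block (edgeR). Npas4, a bHLH-PAS factor induced by calcium entry in neurons, had 43.6, 72.9 and 79.5 CPM in knockout and 12.5, 31.9 and 19.9 CPM in wild type. It rose by 1.67 (SE 0.16, adjusted p = 5.16e-04 with the block, edgeR), and within pairs by 1.80, 1.19 and 1.99.

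Over the whole list of early transcription factors, 26 of 27 members could be tested. A total of 24 were higher in knockout, with a median log2 fold change of 0.76, beside 50.1% higher and a median of 0.001 over all genes tested. For 17 members the genotypes did not overlap in the higher direction (6.58% of all genes). With the block 9 rose (0.171% of all genes): Fos, Junb, Egr1, Egr2, Egr4, Nr4a1, Nr4a3, Npas4 and the Krüppel-like factor Klf10. The median difference was 0.48 in pair 1, 0.84 in pair 2 and 0.88 in pair 3. One member, Klf6, named after its value was seen, went the other way without overlap, with 49.4, 47.1 and 46.6 CPM in knockout against 70.4, 67.7 and 56.1 CPM in wild type (−0.43, SE 0.11, adjusted p = 0.167 with the block, edgeR). The list was written with earlier results of these data known and is not independent evidence of its direction.

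**Figure D2:**
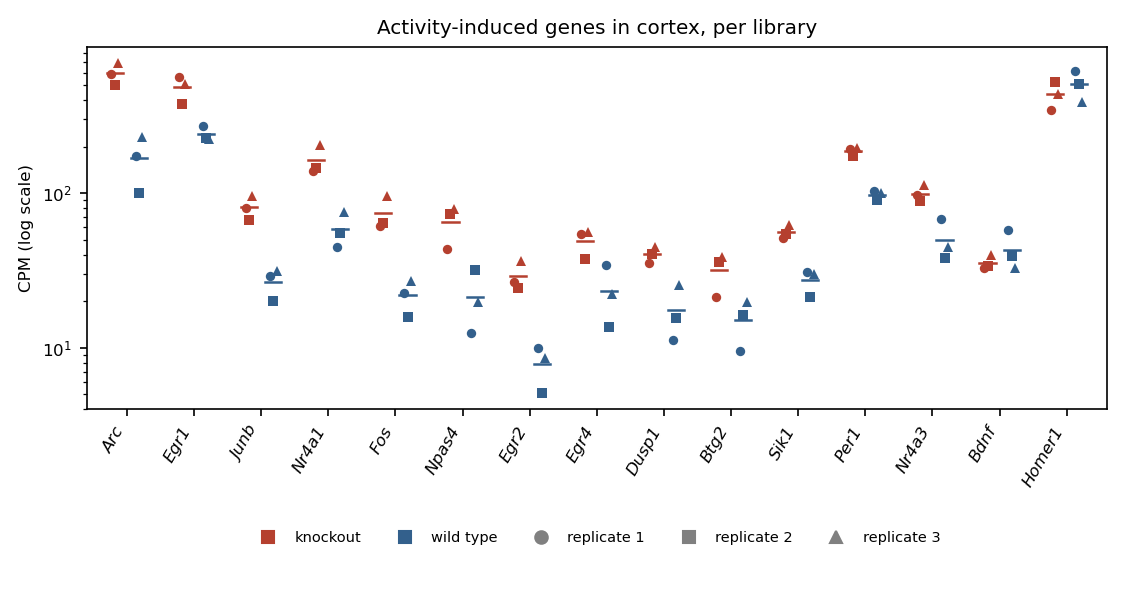
CPM on a log axis of 15 activity-induced genes in each cortex library, knockout (red) left of wild type (blue), with 1 symbol per replicate number and a line at the group mean. Arc at 503 to 688 CPM in knockout lies clear of 101 to 231 CPM in wild type, while Bdnf and Homer1 at the right overlap between genotypes.

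The effectors that early factors and activity induce were split. Arc, which acts at active synapses in the removal of AMPA receptors, had 590, 503 and 688 CPM in knockout, against 175, 101 and 231 CPM in wild type, and rose by 1.88 (SE 0.14, adjusted p = 1.37e-04 with the block, edgeR). Sik1, a kinase that restrains the CREB coactivators of the CRTC family, had 50.9, 54.6 and 61.9 CPM in knockout and 30.7, 21.3 and 30.2 CPM in wild type. Btg2, a regulator of mRNA deadenylation, had 21.4, 35.8 and 38.4 CPM in knockout and 9.47, 16.2 and 19.7 CPM in wild type, and the matricellular protein gene Ccn1 had 8.06, 14.3 and 13.7 CPM in knockout and 3.36, 3.80 and 6.12 CPM in wild type. These 4 genes did not overlap between genotypes and were the members of the list that passed with the block, where 0.171% of all genes rose. The rise with the block was 1.03 (SE 0.13) for Sik1, 1.09 (SE 0.13) for Btg2 and 1.41 (SE 0.20) for Ccn1.

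Of the members whose genotypes overlapped, 3 are shown. Bdnf, a neurotrophin, had 32.7, 33.6 and 40 CPM in knockout, against 57.3, 38.9 and 33 CPM in wild type. The scaffold gene Homer1 had 344, 522 and 439 CPM in knockout and 619, 507 and 388 CPM in wild type, and the pentraxin gene Nptx2 had 53.0, 62.2 and 73.8 CPM in knockout and 101, 46.6 and 71.2 CPM in wild type. Wild type 1 was the highest library for all 3 genes. With the block their log2 fold changes were −0.25 (SE 0.18), −0.21 (SE 0.19) and −0.16 (SE 0.24). They did not pass, at adjusted p = 0.587, 0.676 and 0.807 (edgeR), and each turned positive under some alternative. Of the 28 effectors 20 were higher in knockout with a median of 0.55, and 13 were higher without overlap, where 6.58% of all genes tested were. Inhba, a subunit of activin named after its value was seen, was the one that was lower without overlap (−0.66, adjusted p = 0.858, edgeR).

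Genes that end MAP kinase signalling contributed a pair of calls from a list of 14, where 0.171% of all genes rose with the block. Dusp1, a nuclear phosphatase of MAP kinases, had 35.5, 40.4 and 45.1 CPM in knockout, against 11.3, 15.5 and 25.6 CPM in wild type, and rose by 1.26 with the block (SE 0.16, adjusted p = 0.0054, edgeR). Dusp5, a phosphatase of ERK, had 15.7, 18.8 and 22.3 CPM in knockout and 9.41, 8.71 and 11.1 CPM in wild type, and rose by 0.95 (SE 0.15, adjusted p = 0.0223, edgeR). Over the whole list, Dusp1 and Dusp5 included, 9 of the 14 were higher, with a median of 0.12 and a range from −0.37 to 1.19. Of the 14, 3 were higher without overlap, where 6.58% of all genes were. Spry1, a Sprouty inhibitor of receptor tyrosine kinases, had 6.35, 6.45 and 6.67 CPM in knockout against 8.80, 9.21 and 7.33 CPM in wild type (−0.37, SE 0.18, adjusted p = 0.41 with the block, edgeR). In the list of corepressors and CREB pathway genes, Nab2 alone of 17 passed, where 0.171% of all genes rose with the block. Creb1, the factor that binds cAMP response elements, had 67.7, 84.0 and 72.9 CPM in knockout and 101, 102 and 83.0 CPM in wild type, and the genotypes overlapped (−0.35, SE 0.12, adjusted p = 0.257 with the block, edgeR).

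Promoter sequence was available for 18 of the 27 genes that rose with the block, as windows of 300 bases from 250 before to 50 after an annotated start (RefSeq, GRCm38.p6). The motifs were chosen with the results known. The cAMP response element half-site TGACGT, on either strand, lay in at least 1 window of 10 of the 18 genes, beside 12.6% of the 11381 tested genes with a window. By window these were 12 of 24, or 50%, beside 10.7% of the windows of all tested genes. The full palindrome TGACGTCA, which contains the half-site on both strands, lay in Btg2 and Dusp1 (3.43% of tested genes). The CArG box, the element bound by serum response factor, lay in Egr2 and Dusp5 (1.58% of tested genes). The AP-1 element TGACTCA lay in none of the 18 (4.41% of tested genes). Also searched were GCGGGGGCG, found in Tnfrsf25 and Nr4a1 (6.48% of tested genes), and CCGGAAGT, found in none (8.15%). Arc and Egr1 are among the 9 genes without a window. A match says only that these letters stand in the window. The stretches around the matches are shown for 10 genes, 5′ to 3′ on the gene's strand, with the match on either strand in capitals. Capitals mark the half-site for the first 8 and the CArG box for Egr2 and Dusp5. The Dusp5 stretch also holds a half-site, not capitalised, and the Egr2 stretch holds none.
Fos chr12:85473804-85473849 (+): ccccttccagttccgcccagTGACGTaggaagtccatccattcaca
Npas4 chr19:4990115-4990171 (-): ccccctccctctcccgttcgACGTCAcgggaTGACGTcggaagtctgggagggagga
Nr4a3 chr4:48045055-48045183 (+): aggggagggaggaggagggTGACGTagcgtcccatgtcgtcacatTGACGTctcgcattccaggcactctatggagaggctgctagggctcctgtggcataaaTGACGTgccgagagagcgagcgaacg
Per1 chr11:69100000-69100045 (+): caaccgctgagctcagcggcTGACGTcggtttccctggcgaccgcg
Btg2 chr1:134079294-134079341 (-): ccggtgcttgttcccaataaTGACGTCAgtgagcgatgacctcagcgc
Dusp1 chr17:26508588-26508683 (-): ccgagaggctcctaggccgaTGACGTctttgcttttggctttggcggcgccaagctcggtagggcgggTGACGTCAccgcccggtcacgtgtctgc
Egr4 chr6:85513674-85513787 (-): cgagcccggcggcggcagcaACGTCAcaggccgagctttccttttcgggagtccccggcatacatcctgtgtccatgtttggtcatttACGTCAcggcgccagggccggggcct
Ccn1 chr3:145650019-145650064 (-): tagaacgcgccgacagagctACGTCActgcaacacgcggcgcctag
Egr2 chr10:67537474-67537523 (+): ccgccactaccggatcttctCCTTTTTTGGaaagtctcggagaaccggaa
Dusp5 chr19:53529043-53529102 (+): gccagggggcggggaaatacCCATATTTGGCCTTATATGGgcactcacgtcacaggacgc

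The long noncoding RNA 1700016P03Rik also rose. In GENCODE annotation the loci of miR-132 and miR-212, a pair of microRNAs transcribed after CREB activation, lie inside it on the same strand. It had 7.47, 14.6 and 12.9 CPM in knockout, against 2.08, 3.90 and 4.69 CPM in wild type, and rose by 1.71 with the block (SE 0.19, adjusted p = 0.00129, edgeR). Every knockout library lay above every wild-type library. The mature arms are shown because the pair shares a seed (capitals), which differs from that of miR-7. Their own levels were not measured.
miR-132-3p: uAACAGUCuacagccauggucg
miR-212-3p: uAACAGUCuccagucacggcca

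Among 19 clock genes Per1 and Bhlhe40 rose with the block, where 0.171% of all genes did. Per1, a repressor of the circadian clock with cAMP response elements, had 194, 174 and 197 CPM in knockout, against 103, 89.6 and 100 CPM in wild type. The pairs differed by 0.90, 0.96 and 0.97, and Per1 rose by 0.94 with the block (SE 0.10, adjusted p = 9.09e-04, edgeR). Bhlhe40, a repressor of clock output, had 171, 119 and 165 CPM in knockout and 104, 76.4 and 91.6 CPM in wild type (0.74, SE 0.11, adjusted p = 0.0104 with the block, edgeR). The list as a whole had no common direction: 11 of 19 were higher, with a median of 0.01. Without overlap 5 were higher and 3 lower, where 6.58% and 6.9% of all genes were. The nuclear receptor gene Nr1d2 was lower without overlap, at 98.2, 118 and 99.8 CPM in knockout against 150, 149 and 129 CPM in wild type (−0.44, SE 0.11, adjusted p = 0.157 with the block, edgeR).

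The remaining calls with the block were a mixed group. Tnfrsf25, the death receptor DR3, had the largest fitted rise of the 27, with 6.79, 14.3 and 10.9 CPM in knockout and 1.53, 3.5 and 2.46 CPM in wild type (2.11, SE 0.20, adjusted p = 3.03e-04, edgeR). Chrm4, the M4 muscarinic acetylcholine receptor, had 54.6, 50 and 49.6 CPM in knockout and 30.7, 27.6 and 35.8 CPM in wild type, and rose by 0.71 (SE 0.12, adjusted p = 0.0412, edgeR). Kdm6b, a demethylase of histone H3 lysine 27, had 73.1, 66.6 and 64.2 CPM in knockout and 45.3, 34.3 and 38.5 CPM in wild type (0.79, SE 0.11). Values of these 3 genes did not overlap between genotypes. The adaptor gene Dok3 (1.30, SE 0.23) and Dnase1l2, a relative of DNase I (1.30, SE 0.23), were low, at 3.73 to 8.64 CPM in knockout and 1.34 to 3.20 CPM in wild type, and passed narrowly at adjusted p = 0.0492 and 0.0484 (edgeR).

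In 3 of the genes that rose with the block the genotypes overlapped. C230004F18Rik is a noncoding gene that spans Cdr1 on the other strand. It had 67.3, 240 and 84.3 CPM in knockout, against 18.1, 112 and 33.8 CPM in wild type. Col5a1, a chain of type V collagen, had 27.4, 43.2 and 24.3 CPM in knockout and 11.1, 26.8 and 15.4 CPM in wild type. ENSMUSG00000079733, an identifier without a name in the annotation used, had 66.4, 178 and 110 CPM in knockout and 41.2, 103 and 67.8 CPM in wild type. The libraries numbered 2, those with the highest share of reads in no feature, were the highest of each genotype for all 3 and for 5 of the 27 genes in all. With that share as a covariate C230004F18Rik (1.28, SE 0.10) and Col5a1 (0.82, SE 0.12) passed and ENSMUSG00000079733 (0.65, SE 0.15, adjusted p = 0.0835, edgeR) did not. Of the 30 genes called with the block 23 passed that fit. The others that did not were Nr4a1 (1.47, adjusted p = 0.0835), Arc (1.88, 0.0596), Ccn1 (1.33, 0.0712), Btg2 (1.01, 0.178), Dusp1 (1.16, 0.161) and Gpr22 (−0.75, 0.0558), all by edgeR and in the direction given with the block. C230004F18Rik lies at the altered locus and on the strand of Cdr1as, so reads of the pair cannot be told apart where they overlap. Cdr1 had no count in knockout 1 to 3 and 4, 2 and 1 counts in wild type 1 to 3. The total of 7 wild-type counts is 0.129 CPM pooled, beside the 0.0476 CPM that 3 counts would give over the 63.0 M counts of the knockout libraries.

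The described targets of miR-7 had a small median difference. Of 15 tested, 10 were higher in knockout, with a median of 0.12 and medians of 0.20, 0.27 and 0.14 in pairs 1, 2 and 3. A total of 5 were higher without overlap, where 6.58% of all genes were, and of these Fos and Nr4a3 passed with the block, where 0.171% of all genes rose. Klf4, a Krüppel-like factor, had 9.13, 11.1 and 11.3 CPM in knockout and 7.21, 4.20 and 4.69 CPM in wild type (0.98, SE 0.22, adjusted p = 0.139 with the block, edgeR). Pik3cd, a catalytic subunit of phosphoinositide 3-kinase, had 31.4, 29.7 and 31.8 CPM in knockout and 22.1, 24.4 and 27.1 CPM in wild type (0.34, SE 0.12, adjusted p = 0.281 with the block, edgeR). Irs2, an adaptor of the insulin receptor, had 110, 94.6 and 116 CPM in knockout and 110, 46.2 and 75.3 CPM in wild type. The genotypes overlapped, and Irs2 did not pass (0.55, SE 0.17, adjusted p = 0.261 with the block, edgeR). The list was written with earlier results known.

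Of 11 listed loci of the miR-7 and miR-671 network 6 could be tested, 3 of them shown here besides Cdr1as and C230004F18Rik. The long noncoding RNA 1700020I14Rik had 584, 713 and 620 CPM in knockout and 714, 836 and 715 CPM in wild type (−0.24, SE 0.09). Zswim8, part of the ubiquitin ligase that degrades Argonaute with its microRNA at highly paired targets, had 157, 160 and 156 CPM in knockout and 138, 135 and 136 CPM in wild type (0.22, SE 0.10). Hnrnpk, whose transcript holds a miR-7a hairpin, had 246, 238 and 257 CPM in knockout and 310, 289 and 266 CPM in wild type (−0.22, SE 0.10). None of these passed with the block, at adjusted p = 0.28, 0.387 and 0.375 (edgeR), although the genotypes did not overlap.

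**Figure D3:**
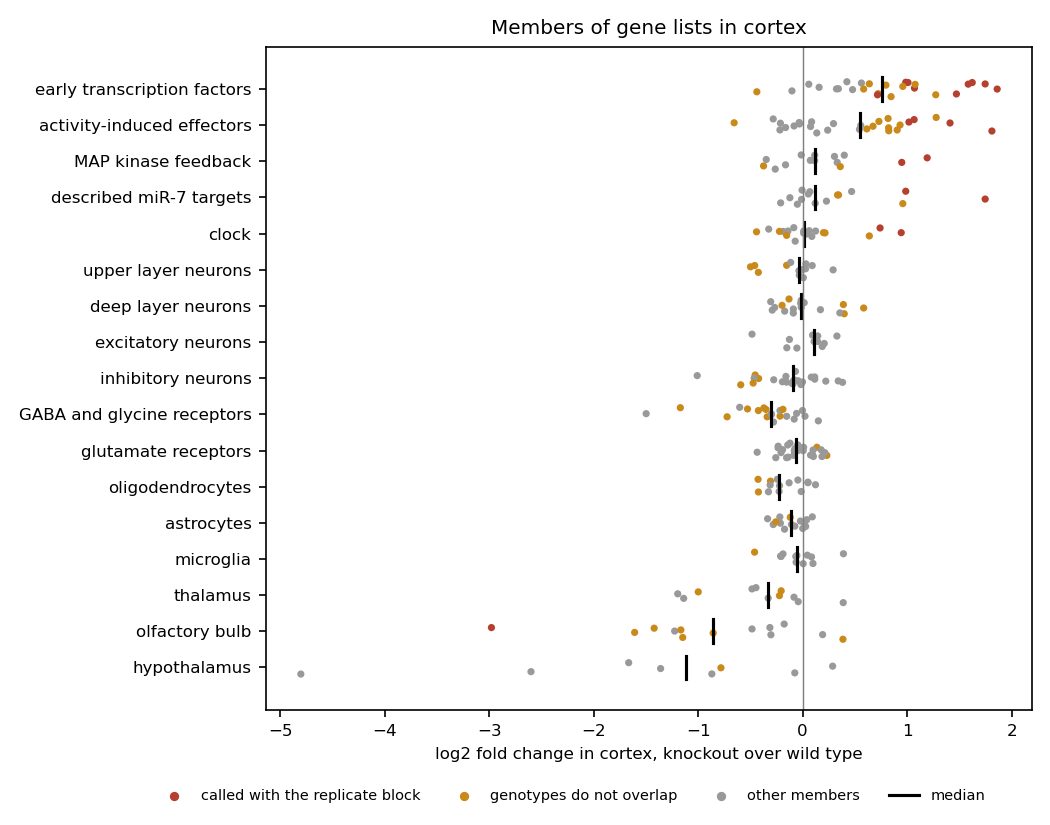
Log2 fold change of knockout over wild type in cortex (x axis) for each tested member of 17 gene lists, with the list median as a black bar. Red points passed with the replicate block, orange points did not overlap between genotypes, and grey points did neither. The early transcription factors centre on 0.76 and the olfactory bulb markers on −0.86, while the upper and deep layer lists centre on −0.03 and −0.02.

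Genes of inhibitory signalling were mostly lower in knockout, and none passed alone. Of 21 GABA and glycine receptor genes tested 19 were lower, with a median of −0.30, and 9 were lower without overlap, where 6.9% of all genes were. Gabrg1, a gamma subunit of the GABA-A receptor, had 16.0, 21.9 and 21.6 CPM in knockout and 40.7, 29.1 and 28.1 CPM in wild type (−0.72, SE 0.19). The alpha subunit gene Gabra4 had 101, 127 and 98.1 CPM in knockout and 142, 153 and 142 CPM in wild type (−0.43, SE 0.11), and the beta subunit gene Gabrb2 had 340, 402 and 350 CPM in knockout and 499, 496 and 417 CPM in wild type (−0.37, SE 0.10). These values are with the block, and their adjusted p-values were 0.187, 0.162 and 0.169 (edgeR). The median was −0.45 in pair 1, −0.15 in pair 2 and −0.18 in pair 3, and −0.20 without wild type 1 and without knockout 1. Glutamate receptor genes had a median of −0.06, with 11 of 31 higher.

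Markers of inhibitory neurons themselves were lower in 18 of 24, with a median of −0.09. Gad2, a GABA-synthesising enzyme, had 209, 238 and 239 CPM in knockout and 323, 293 and 302 CPM in wild type (−0.42, SE 0.10, adjusted p = 0.155 with the block, edgeR), and the homeobox gene Dlx2 had 4.81, 3.95 and 4.32 CPM in knockout and 6.48, 7.41 and 5.94 CPM in wild type (−0.59, SE 0.20, adjusted p = 0.271 with the block, edgeR). Both were lower without overlap. The summed level of 6 defining markers (Gad1, Gad2, Slc32a1, Pvalb, Sst and Vip) was 831 to 910 CPM in knockout and 797 to 1091 CPM in wild type, so the groups overlapped. In whole tissue, fewer cells of a type and less RNA per cell cannot be told apart.

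Most genes listed as typical of the olfactory bulb had lower values in knockout cortex than in wild-type cortex, and Eomes alone passed. Eomes, a T-box factor of bulb projection neurons, had 0.119, 0.570 and 0.327 CPM in knockout, against 3.67, 2.70 and 1.76 CPM in wild type. It fell by 3.05 with the block (SE 0.49, adjusted p = 0.0303, edgeR). Shisa3 had 0.675, 0.570 and 0.916 CPM in knockout and 2.26, 2.5 and 1.83 CPM in wild type (−1.61, SE 0.37, adjusted p = 0.139 with the block, edgeR), and the zinc-finger gene Sp8 had 1.95, 2.72 and 3.40 CPM in knockout and 8, 5.41 and 4.58 CPM in wild type (−1.16, SE 0.30, adjusted p = 0.169 with the block, edgeR). Of the 13 listed genes tested 11 were lower with a median of −0.86, and 6 were lower without overlap, where 6.9% of all genes were. Islr2, named after its value was seen, was higher without overlap (0.39). The median was −0.51 without wild type 1. The 5 defining markers (Eomes, Tbx21, Th, Cdhr1 and Doc2g) summed to 16.1 to 16.9 CPM in knockout cortex and 23.1 to 47.8 CPM in wild-type cortex, beside 716 to 831 CPM in the olfactory bulb libraries. The part of tissue carried over from neighbouring regions in these differences was not tested.

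Hypothalamic peptides varied by library rather than by genotype alone. Pmch, the precursor of melanin-concentrating hormone, had 0.0397, 0.570 and 0.393 CPM in knockout, against 15.3, 0.400 and 11.3 CPM in wild type. Oxt, encoding oxytocin, had 0.119, 0.965 and 1.77 CPM in knockout and 8.37, 1.70 and 6.16 CPM in wild type. Wild type 2 lay among the knockout values for both. Zic1, a factor of cerebellum, thalamus and septum, had 13.1, 17.7 and 19.0 CPM in knockout and 43.2, 26.7 and 29.3 CPM in wild type (−0.98, SE 0.21, adjusted p = 0.161 with the block, edgeR). The choroid plexus transcript Ttr ranged from 6.80 to 191 CPM in knockout and from 2.64 to 201 CPM in wild type. Of 10 cerebellar genes tested 7 were lower in knockout with a median of −0.31, or −0.10 without wild type 1. A total of 3 were lower without overlap, where 6.9% of all genes were. The 5 defining cerebellar markers summed to 25.3 to 31 CPM in knockout and 36.8 to 61.5 CPM in wild type. Among them Gabra6 had 0 to 0.0454 CPM in knockout and 0.078 to 0.705 CPM in wild type, while Pcp2 had at most 0.0907 CPM in knockout and 0.0641 CPM in wild type, with 0 in some libraries of each. Of 11 thalamic genes 10 were lower with a median of −0.33, and 3 were lower without overlap, again beside 6.9% of all genes. The thalamic median was −0.01 in pair 1, −0.12 in pair 2 and −0.58 in pair 3. Of 13 striatal genes 11 were lower with a median of −0.17, and 1 was lower without overlap, beside 6.9% of all genes. The striatal median was 0.29, −0.11 and −0.74 in pairs 1, 2 and 3. The 5 defining striatal markers summed to 248 to 451 CPM in knockout and 259 to 449 CPM in wild type. In the other regions they summed to at most 41.7 CPM. The part of carried-over tissue in these values was not tested either.

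**Figure D4:**
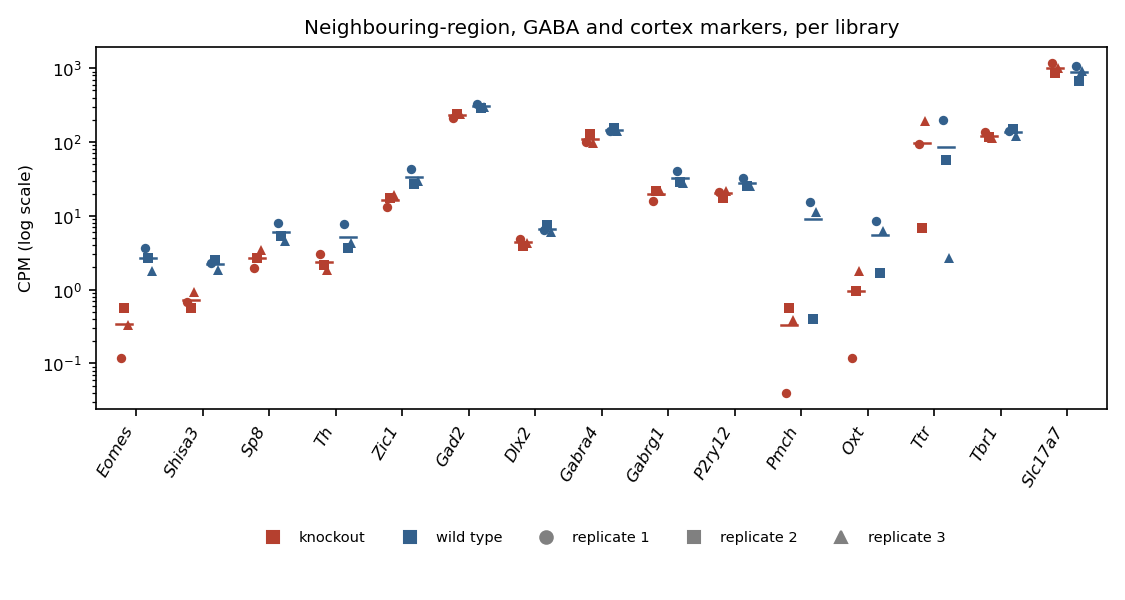
CPM on a log axis of markers of neighbouring regions (Eomes to Zic1, Pmch to Ttr), inhibitory signalling (Gad2 to Gabrg1), microglia (P2ry12) and cortex (Tbr1, Slc17a7) in each cortex library, knockout (red) left of wild type (blue), with a line at the group mean. Eomes at 0.119 to 0.570 CPM in knockout lies below 1.76 to 3.67 CPM in wild type, while Tbr1 and Slc17a7 overlap and Ttr spreads widely within both groups.

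No layer gene passed with the block. Upper layer markers had a median of −0.03, with 5 of 13 higher and 4 lower without overlap. Deep layer markers had a median of −0.02, with 6 of 17 higher, 3 higher without overlap and 2 lower without overlap. Over all genes 6.58% were higher and 6.9% lower without overlap. Slc17a7, the vesicular glutamate transporter of cortical excitatory neurons, had 1159, 874 and 997 CPM in knockout and 1058, 679 and 923 CPM in wild type (0.20, SE 0.09, adjusted p = 0.382 with the block, edgeR). A few layer genes were apart without passing. Calb1, a calcium buffer of upper layer neurons, had 109, 98.5 and 103 CPM in knockout and 151, 143 and 122 CPM in wild type (−0.42, SE 0.11), and Fezf2, a factor of deep layer projection neurons, had 28, 24.1 and 24.7 CPM in knockout and 19.7, 19.9 and 19.0 CPM in wild type (0.39, SE 0.13). The adjusted p with the block was 0.167 for Calb1 and 0.255 for Fezf2 (edgeR).

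Gpr22, an orphan G protein-coupled receptor, was the third gene that fell. It had 46.3, 50 and 43 CPM in knockout, against 95.3, 79.6 and 61.5 CPM in wild type, and changed by −0.74 with the block (SE 0.12, adjusted p = 0.0343, edgeR). Microglia had a median of −0.06 over 12 markers, of which 5 were higher and 1, P2ry12, was lower without overlap (6.9% of all genes). The purinergic receptor gene P2ry12 (21.0, 17.6 and 21.8 CPM in knockout, 32.2, 25.7 and 25.0 CPM in wild type) and its relative P2ry13, which is not in the list (6.51, 5.39 and 5.95 CPM in knockout, 11.9, 10.7 and 10.6 CPM in wild type) had non-overlapping values. With the block P2ry13 stood at −0.90 (SE 0.17, adjusted p = 0.0691, edgeR) and P2ry12 at −0.45 (SE 0.13, adjusted p = 0.2, edgeR). Oligodendrocyte genes had a median of −0.22 with 11 of 14 lower, and astrocyte genes of −0.11 with 10 of 15 lower. Ermn, a cytoskeletal protein of myelin-forming cells, had 37.3, 41.4 and 34.3 CPM in knockout and 52.4, 51.3 and 48.4 CPM in wild type (−0.43, SE 0.11, adjusted p = 0.169 with the block, edgeR).

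To show where cortex differs, its knockout effect was set against the mean effect of the other 3 regions in a fit of all 24 libraries. Of 17600 genes tested 1 passed (0.00568%), and 365 (2.07%) had an unadjusted p below 0.05. That gene was Eomes, whose effect in cortex minus the mean of the other regions was −3.30 (SE 0.40, adjusted p = 3.81e-04, edgeR). Its log2 fold change was −2.98 in cortex, 0.11 in hippocampus, 1.27 in cerebellum and −0.28 in olfactory bulb. The next was 1190002N15Rik, with 26.1, 29.7 and 27.4 CPM in knockout cortex and 53.4, 49.5 and 37.0 CPM in wild-type cortex, at −0.82 (adjusted p = 0.442, edgeR).

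None of the 27 genes that rose with the block was shown to differ between cortex and the other regions after adjustment. The difference was above 0 for 23 of the 27 and had an unadjusted p below 0.05 for 10, but the genes were chosen as high in cortex, which pushes it upward. In the hippocampus 26 of the 27 had a positive fold change (median 0.63, where 45.8% of all genes were higher). In the olfactory bulb 26 of 27 were also positive (median 0.88, all genes 48.2%), and in the cerebellum 22 of the 26 tested (median 0.54, all genes 43.5%). Each region has its own wild-type libraries, but the sources used here do not say whether different regions came from the same mice. The regions are therefore not shown to be independent, and the fit of all 24 libraries treats every library as separate. Arc was at 1.81 in cortex, −0.10 in cerebellum, 1.29 in hippocampus and 1.32 in olfactory bulb. In the same order Egr1 was at 1.01, 0.01, 0.96 and 1.22, and Junb at 1.58, 0.21, 0.86 and 1.42. The cortex effect minus the mean of the others was 0.31 for Egr1 (SE 0.30) and 0.76 for Junb (SE 0.39), and neither passed over all genes. For Nr4a3 this difference was negative (−0.64, SE 0.28). Its fold change was 0.99 in cortex, 1.96 in cerebellum and 2.45 in olfactory bulb, but 0.55 in hippocampus. The differences of Nr4a3, Bhlhe40 (0.77, SE 0.19) and Chrm4 (0.93, SE 0.25) did not pass either.

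**Figure D5:**
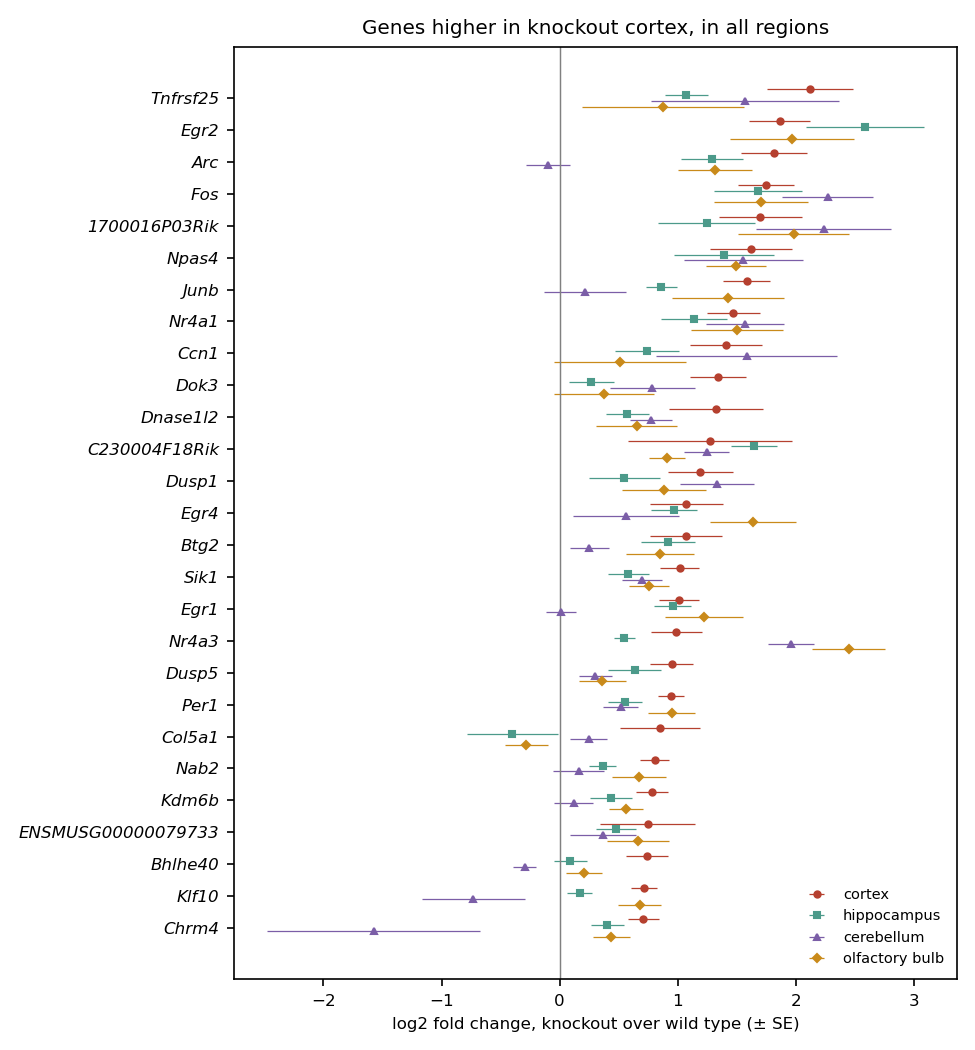
Log2 fold change of knockout over wild type ± SE (x axis) in cortex, hippocampus, cerebellum and olfactory bulb, each fitted without the block on its own 6 libraries, for the 27 genes that rose in cortex with the replicate block. Most points lie right of 0 in every region, with exceptions such as Arc at −0.10 and Chrm4 at −1.58 in cerebellum.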

How the data were processed

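The authors deposited a table of unnormalized gene counts for each library. The submitters' processing notes name build mm9 and the tools HTSeq 0.6.1p1, STAR 2.5.1b and bcl2fastq 2.17.1.14. TRIzol extraction and a stranded kit are recorded per the labels. The sources used here do not say whether counting used strand. Library sizes and tests omit 5 summary entries per table. Names came from a gene name table and GENCODE annotation of GRCm38, which matched 32897 of 37620 identifiers (98.53% of cortex counts).

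Counts were tested with edgeR 4.0.16 in R 4.3.3 (limma 3.58.1, DESeq2 1.42.0 as alternatives) by the quasi-likelihood F-test, two-sided, with TMM scaling, filterByExpr at a minimum count of 10 and Benjamini-Hochberg adjustment at 0.05. The main model had genotype only. A second fit adds replicate number as a block, since every same-numbered pair correlated above 0.1. The labels give no other link between same-numbered libraries. The scripts were tested on simulated data. Replicates all differed by more than sampling noise (chi-square per degree of freedom of 22.1 to 76.9). The 3-count floor covers counting error only.

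The genes compared and the 37 gene lists were chosen with earlier results of these data known. Named genes were those called with or without the block, up to 4 members of each list with the smallest p, a fixed set of early genes and defining markers, the 8 largest non-overlapping changes in each direction with unadjusted p below 0.01 and mean log2 CPM of at least 1, and the 5 smallest p of the comparison between regions. Alternatives covered scaling, filters, DESeq2, limma voom weights, the share of reads in no feature, all 24 libraries, and each library or pair left out.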

Additional observations from a re-analysis of the deposited data

Results flagged for a closer look

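Eomes was singled out because its knockout effect differed between cortex and the other 3 regions in a test of that difference. The log2 effect in cortex minus the mean effect elsewhere was −3.30 (SE 0.40, adjusted p = 3.81e-04, edgeR), and Eomes was the only gene called in each of the 9 alternatives of that test. In cortex it rests on low levels, 0.132 to 0.59 CPM in knockout and 1.87 to 3.85 CPM in wild type, beside up to 125 CPM in the other regions. These values were scaled over all 24 libraries. The sum of the 5 defining olfactory bulb markers was lower in every knockout cortex library as well, and their part in the Eomes difference was not tested.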

How the results depend on the processing

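The count of genes called in cortex moved with the model, and Cdr1as was called in every setting. It was 1 with genotype as the only term (890 at an unadjusted p below 0.05), with upper-quartile scaling and with a mean of at least 1 CPM. It was 7 with no low-count filter, 6 in a fit of all 24 libraries, 16 with limma voom quality weights, 40 with DESeq2 and 56 once the no-feature share entered as a covariate. The fit with the replicate block called 30, or 26 with upper-quartile scaling, and DESeq2 with the block called 79. Of the 30, DESeq2 called 23 (57.5% of its own list, 76.7% of the 30), the covariate fit 23 (41.1% of its own) and voom 13 (81.2% of its own, 43.3% of the 30). All 30 kept their direction in every setting. Leaving out 1 library or pair gave 1 to 523 calls: 3 without wild type 2, otherwise 1 without the block, and with the block 122, 523 and 92 without pair 1, 2 and 3, each including all 30. With the block the spread rests on few residual degrees of freedom even with all 3 pairs, and on fewer with 2.

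Of 1590 values of named genes under alternatives 5 reversed. Bdnf was 0.00043 with voom weights, and 0.0372 with the block and pair 1 left out, in a range from −0.51 to 0.04. Homer1 ran from −0.40 to 0.11 and Nptx2 from −0.45 to 0.23, Nptx2 being positive without wild type 1 (0.097). The comparison between regions called 1 gene in all its alternatives, the replicate block included. Depth limits Cdr1, Pmch and the low markers.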
